A study of Homo sapiens with 6 samples.

Results

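Mitochondrial ribosomal proteins are nuclear-encoded proteins that are imported into mitochondria and built around ribosomal RNAs read from mitochondrial DNA. The mature particle has a large subunit, which forms peptide bonds, and a small subunit, which decodes the mRNA. It translates only the mRNAs of mitochondrial DNA, all of which encode inner-membrane subunits of the respiratory chain and of ATP synthase. The members described here were the protein-coding genes whose symbol is MRPL or MRPS, a number and at most 1 letter, averaging 0.5 FPKM or more over 6 libraries. All 78 genes with such a symbol met that level, 49 MRPL genes of the large subunit and 29 MRPS genes of the small subunit, out of 14770 genes tested. FPKM is a count of sequenced fragments divided by transcript length and by the mapped fragments of the library.

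Total RNA of MDA-MB-231, an established epithelial TNBC (triple-negative breast cancer) cell line, was sequenced on day 3 without further treatment. The cells carried a control short hairpin RNA (Sh-NC, n = 3 libraries) or one directed at YAP1 (Sh-YAP1, n = 3 libraries, labelled YAP1 knockdown). YAP1 is a transcriptional coactivator of the Hippo pathway that binds DNA through partners such as the TEAD factors, and the comparison asks which genes change when it is depleted. YAP1 itself was 25.7 ± 2.66 FPKM (SD, n = 3) with Sh-NC and 2.87 ± 0.42 FPKM (SD, n = 3) with Sh-YAP1. VIM and CD44, markers of these cells, reached at least 1645 and 114 FPKM in every library, and the keratins KRT8 and KRT18 at least 126 and 99.9 FPKM. ESR1, PGR, CDH1 and PTPRC, markers of luminal, epithelial or blood cells, stayed at or below 0.49 FPKM, while EPCAM (2.43 to 3.27 FPKM), PECAM1 (0.76 to 1.70 FPKM) and COL1A1 (3.64 to 8.32 FPKM) were low but measured. The labels number the libraries but do not say whether they came from separate cultures or whether the knockdown cells were 1 clone, so the p-values below measure the spread between these libraries, which may be technical. No counts come with the values, and library depth is unknown. A change in every cell and a change in the share of cells that express a gene cannot be told apart in such bulk samples.

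The members were summed in each library to follow the subunits as wholes. Genes of the large subunit summed to 2069, 2108 and 2093 FPKM in replicates 1 to 3 of Sh-NC and to 1807, 1873 and 1956 FPKM in replicates 1 to 3 of Sh-YAP1. All Sh-YAP1 sums lay below all Sh-NC sums, with a mean of 2090 ± 19.6 FPKM (SD, n = 3) with Sh-NC and 1879 ± 74.5 FPKM (SD, n = 3) with Sh-YAP1, a difference of -10.1%. Genes of the small subunit summed to 949, 993 and 968 FPKM with Sh-NC and to 865, 916 and 916 FPKM with Sh-YAP1. Again the groups did not overlap, and the means of 970 ± 22.5 and 899 ± 29.7 FPKM (SD, n = 3) differed by -7.34%. When only the transcript row with the highest mean of each gene was used, the ratio of the Sh-YAP1 to the Sh-NC mean was 0.937 for the large and 0.968 for the small subunit. No p is given for a sum over chosen members. The sum over all tested genes differed by -0.0964% between the groups. FPKM is divided by the mapped fragments of a library, so that total can hardly differ and is no control.

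Sh-YAP1 replicate 1 had the lowest sum of both subunits and was the lowest of the 6 libraries for 32 of the 78 members. Among all 14770 tested genes it was the lowest for 3042 and the highest for 2993. Without it, the ratio of the Sh-YAP1 to the Sh-NC mean was 0.916 for the large and 0.944 for the small subunit, against 0.899 and 0.927 with it. The sum of the large subunit divided by that of the small subunit was 2.18, 2.12 and 2.16 in Sh-NC and 2.09, 2.05 and 2.14 in Sh-YAP1, so that the groups overlapped in their subunit ratio.

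**Figure D1:**
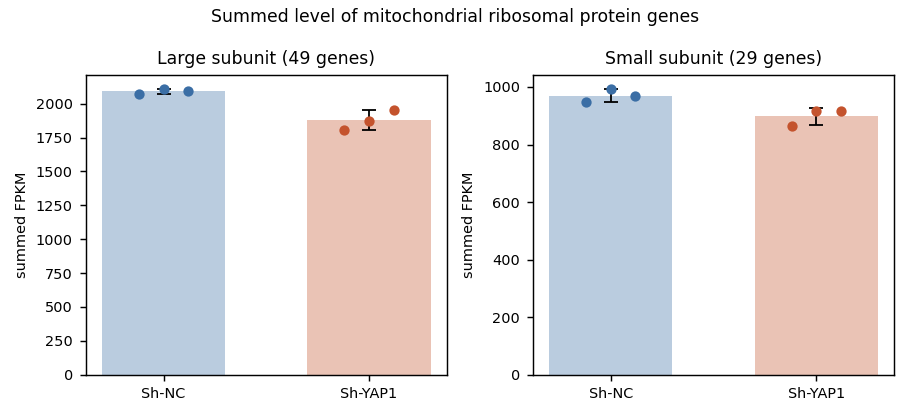
Summed FPKM of the 49 large-subunit genes (left) and the 29 small-subunit genes (right) in each library. Points are libraries, bars are group means from 0 and error bars are the SD of 3 libraries. In both panels every Sh-YAP1 library lies below every Sh-NC library.

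Levels of the members spanned from 7.58 FPKM for MRPS14 to 92.6 FPKM for MRPL51 as means over the 6 libraries. FPKM is scaled per length, so these levels can be set side by side between genes. The median member level was 36.2 FPKM, 40.3 FPKM in the large and 25.7 FPKM in the small subunit, against 7.35 FPKM over all tested genes. MRPL51 (81.3 to 102 FPKM) and MRPL24 (82.95 to 95.04 FPKM) were the highest of the large subunit and did not differ beyond their ranges. In the small subunit MRPS24 (55.7 to 104 FPKM) and MRPS6 (61.1 to 69.2 FPKM) were highest, also with overlapping ranges. MRPL19 (7.04 to 9.27 FPKM), MRPL42 (5.68 to 16.0 FPKM), MRPS14 (5.50 to 8.45 FPKM) and MRPS31 (8.72 to 9.88 FPKM) were the lowest of their subunits. Every one of these lowest members lay far above the 0.5 FPKM threshold, so no member stood near it.

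**Figure D2:**
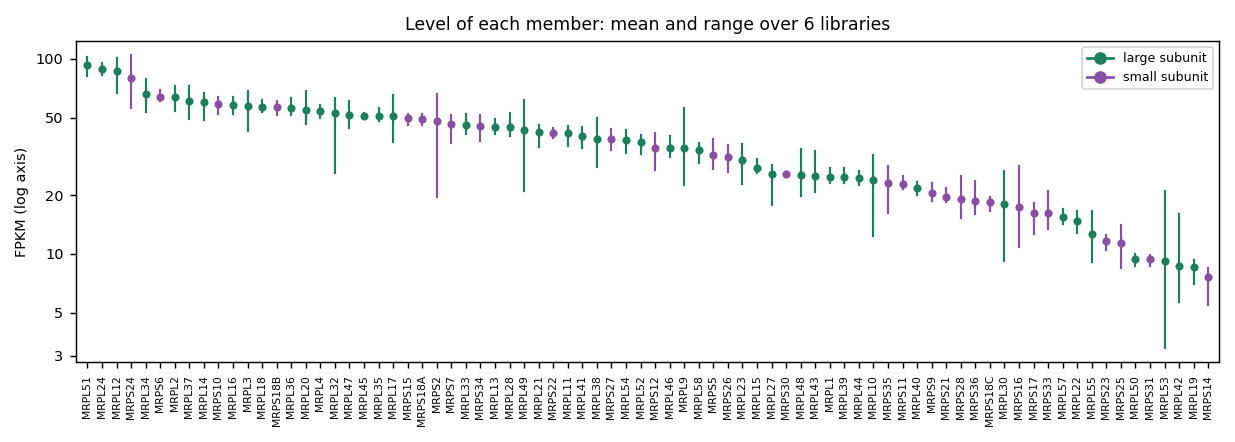
Mean FPKM of each member on a log axis, ordered from high to low. Dots are means and vertical lines the range over 6 libraries, in green for the large and purple for the small subunit. Most members have narrow ranges, while MRPL53, MRPS2, MRPL49, MRPL30 and MRPL42 have the widest.

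Single members were compared between the groups with limma on log2(FPKM + 1), a scale that understates changes of low genes. With the Benjamini-Hochberg adjustment over all tested genes and a threshold of 0.05 (limma), 1 member of the large subunit, MRPL9, was downregulated and 0 of the small subunit changed. Over all tested genes 3.38% passed that threshold, 1.62% as lower and 1.75% as higher. At an unadjusted p under 0.05, 13 large-subunit members were lower and 0 higher, while 3 small-subunit members were lower and 1 was higher. These 17 of 78 members (21.8%) compare with 21.9% of all tested genes in either direction. By direction, 26.5% of the large-subunit, 10.3% of the small-subunit and 20.5% of all members were lower at that level, against 11.1% of all tested genes, and 10.8% of all tested genes were higher. The direction was uneven, with 56 of 78 members (71.8%) at a log2 fold change below 0 against 50.2% of all tested genes. The median log2 fold change was -0.12 in the large subunit (quartiles -0.26 and 0.02) and -0.07 in the small subunit (quartiles -0.15 and 0.03), against -0.00 over all tested genes. With the highest row of each gene alone the large-subunit median was -0.054, and with 1 library left out the small-subunit median ran from -0.11 (without Sh-YAP1 replicate 2) to -0.030 (without Sh-YAP1 replicate 1).

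Groups that do not overlap, with all 3 Sh-YAP1 values on one side of all 3 Sh-NC values, were found for 21 members. Of these, 15 were large-subunit genes, all lower in Sh-YAP1. The other 6 were small-subunit genes, 4 of them lower (MRPS24, MRPS12, MRPS17 and MRPS26) and 2 higher (MRPS10 and MRPS11). Lower without overlap were thus 30.6% of the large-subunit and 13.8% of the small-subunit members, against 14.7% of all tested genes, and 29.4% of all tested genes did not overlap in either direction. Whether the subunits differ from each other was not tested.

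**Figure D3:**
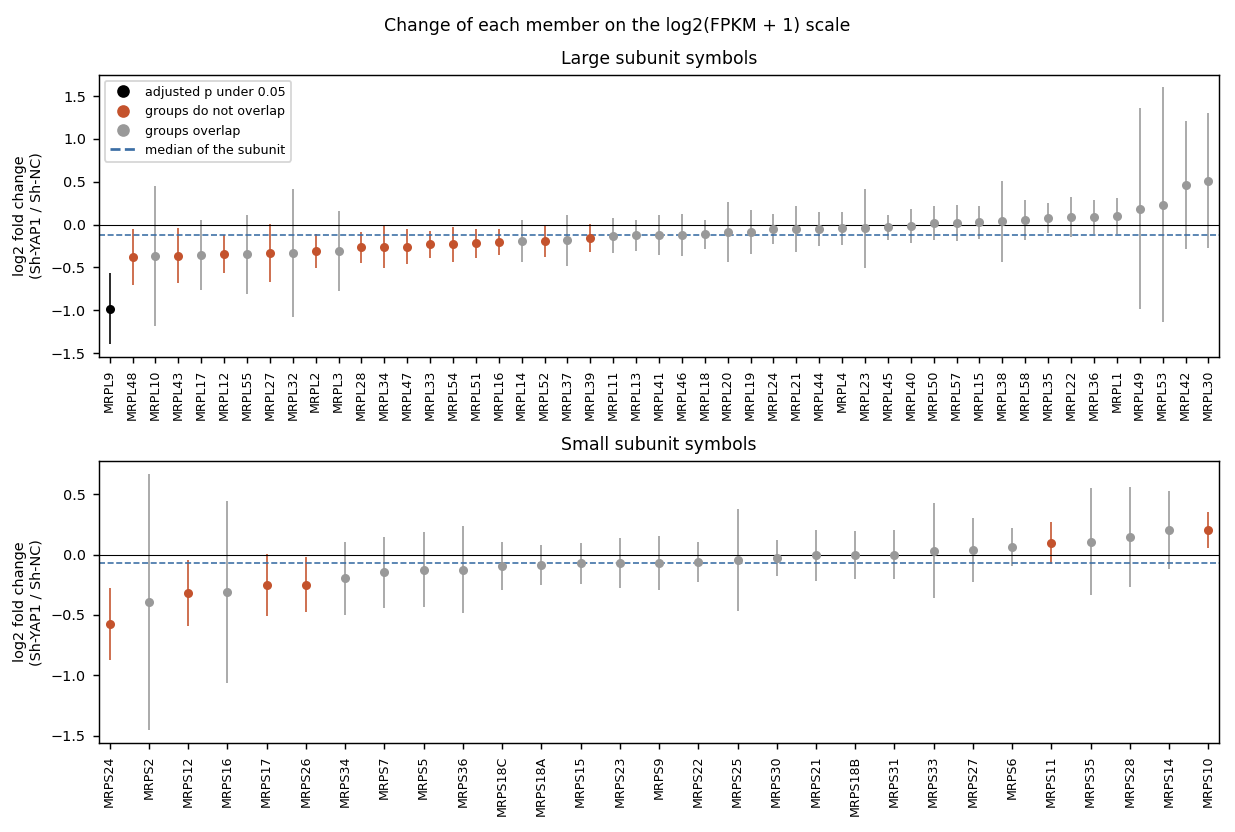
Log2 fold change (Sh-YAP1 over Sh-NC) of each large-subunit (top) and small-subunit (bottom) member on the log2(FPKM + 1) scale, with 95% confidence intervals from limma. Black marks an adjusted p under 0.05, red groups without overlap, grey overlapping groups, and the dashed line the median of the subunit. Only MRPL9 is black, and most points lie slightly below 0.

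MRPL9 encodes a large-subunit protein with a bacterial homologue. The gene lies on the minus strand of chromosome 1 from 151759643 to 151763564 (GENCODE 29, GRCh38, matched by gene identifier). It was 34.6, 56.2 and 50.2 FPKM in replicates 1 to 3 of Sh-NC and 22.7, 23.1 and 22.6 FPKM in replicates 1 to 3 of Sh-YAP1. All Sh-YAP1 values were lower, and they were far closer to each other than the Sh-NC values. The mean was 47.0 ± 11.2 FPKM (SD, n = 3) with Sh-NC and 22.8 ± 0.27 FPKM (SD, n = 3) with Sh-YAP1, with a log2 fold change of -0.98 (standard error 0.17, limma with Benjamini-Hochberg adjustment, adjusted p = 0.0364).

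That difference rested on the transcript rows that were added up for the gene. The files list MRPL9 in 11 rows, 1 for each transcript model, without transcript names. The row with the second highest mean was 0, 28.9 and 27.1 FPKM in replicates 1 to 3 of Sh-NC and was listed at 0 in every Sh-YAP1 library. The row with the highest mean went the other way in those 2 Sh-NC libraries, at 29.6, 13.9 and 13.8 FPKM with Sh-NC and 19.4, 20.4 and 19.7 FPKM with Sh-YAP1. Its groups overlapped, with a log2 fold change of 0.14 for that row alone and an adjusted p of 0.870 (limma, Benjamini-Hochberg). Without the row listed at 0, a choice made after its values were seen, the gene was 34.6, 27.4 and 23.1 FPKM with Sh-NC against the same 22.7, 23.1 and 22.6 FPKM with Sh-YAP1. The groups then overlapped, with a log2 fold change of -0.28 and an adjusted p of 0.295 (limma, Benjamini-Hochberg). The third row, at 3.15, 12.1 and 6.76 FPKM with Sh-NC and 0.86, 1.89 and 1.57 FPKM with Sh-YAP1, was lower in all Sh-YAP1 libraries. The adjusted p was above 0.05 when any library other than Sh-NC replicate 1 was left out, between 0.0962 and 0.112 (limma, Benjamini-Hochberg). Without Sh-NC replicate 1 it was 0.0212, and with no filter on low genes 0.230 (limma, Benjamini-Hochberg).

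**Figure D4:**
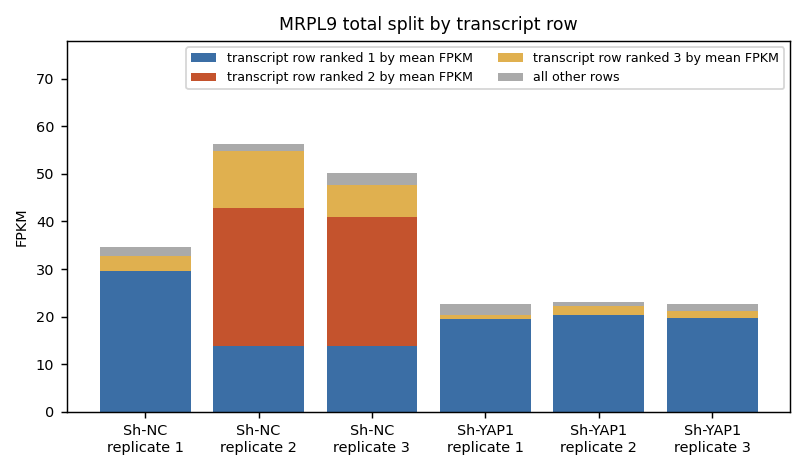
FPKM of MRPL9 in each library, split by transcript row and stacked from 0. The row ranked second (red) is present in Sh-NC replicates 2 and 3 only, where the row ranked first (blue) is lower than in the other libraries.

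MRPS24, a protein of the small-subunit head, had the largest negative log2 fold change of its subunit. It lies on the minus strand of chromosome 7 from 43866558 to 43869893. Its values were 97.6, 104 and 84.4 FPKM with Sh-NC and 63.0, 55.7 and 72.9 FPKM with Sh-YAP1. Every Sh-YAP1 value was below every Sh-NC value, with means of 95.4 ± 10.1 and 63.8 ± 8.62 FPKM (SD, n = 3), but the log2 fold change of -0.58 (standard error 0.12) missed the threshold at an adjusted p of 0.0624 (limma, Benjamini-Hochberg). Among its 5 rows the highest overlapped between the groups, while the second (35.9, 39.7 and 30.8 against 27.7, 7.01 and 21.1 FPKM) and the third (16.3, 16.9 and 16.0 against 6.13, 12.5 and 9.86 FPKM) were lower in all Sh-YAP1 libraries. A read-through gene, URGCP-MRPS24, shares exons with it on the same strand and stood at 0.27 and 0.35 FPKM.

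MRPL12 and MRPS10 are each listed in 1 row, so no split between transcripts enters their values. MRPL12, a protein of the stalk that contacts translation factors, was 97.9, 100.9 and 90.8 FPKM with Sh-NC and 67.1, 81.1 and 79.5 FPKM with Sh-YAP1. It was lower in all 3 Sh-YAP1 libraries, with a log2 fold change of -0.35 (standard error 0.09, limma with Benjamini-Hochberg adjustment, adjusted p = 0.102). MRPS10, a protein of the small-subunit head, was 52.2, 55.0 and 55.7 FPKM with Sh-NC and 61.2, 63.2 and 63.7 FPKM with Sh-YAP1. It was higher in all 3 Sh-YAP1 libraries, with a log2 fold change of 0.20 (standard error 0.06, limma with Benjamini-Hochberg adjustment, adjusted p = 0.126).

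The promoters of these 4 genes are shown because they are the member that passed the test, the small-subunit members furthest from 0 in each direction, and the stalk protein measured in 1 row. They come from RefSeq (GRCh38.p14), each 300 bases on the strand of the gene, 250 before and 50 after its RefSeq start. Capitals mark CCGGAAG (letters bound by ETS factors), AAGATGGC (YY1, an unrelated zinc-finger factor), GCATGCGC (NRF1, a regulator of genes for mitochondrial proteins), GGAATG (TEAD) or CACGTG (an E-box), on either strand. The windows are chr1:151763447-151763746 on the minus strand for MRPL9, chr7:43869468-43869767 on the minus strand for MRPS24, chr6:42217812-42218111 on the minus strand for MRPS10 and chr17:81703117-81703416 on the plus strand for MRPL12.
MRPL9: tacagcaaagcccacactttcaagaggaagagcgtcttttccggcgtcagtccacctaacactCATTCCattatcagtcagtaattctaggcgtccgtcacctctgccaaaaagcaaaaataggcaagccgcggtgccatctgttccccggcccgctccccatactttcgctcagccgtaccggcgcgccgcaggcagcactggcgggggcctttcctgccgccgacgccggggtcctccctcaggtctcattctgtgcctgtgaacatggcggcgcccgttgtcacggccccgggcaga
MRPS24: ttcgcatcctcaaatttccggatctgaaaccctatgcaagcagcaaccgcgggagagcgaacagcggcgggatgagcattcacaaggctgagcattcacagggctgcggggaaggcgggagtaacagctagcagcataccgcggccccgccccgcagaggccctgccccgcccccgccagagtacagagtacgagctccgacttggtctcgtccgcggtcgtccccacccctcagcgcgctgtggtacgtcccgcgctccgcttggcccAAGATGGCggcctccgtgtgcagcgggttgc
MRPS10: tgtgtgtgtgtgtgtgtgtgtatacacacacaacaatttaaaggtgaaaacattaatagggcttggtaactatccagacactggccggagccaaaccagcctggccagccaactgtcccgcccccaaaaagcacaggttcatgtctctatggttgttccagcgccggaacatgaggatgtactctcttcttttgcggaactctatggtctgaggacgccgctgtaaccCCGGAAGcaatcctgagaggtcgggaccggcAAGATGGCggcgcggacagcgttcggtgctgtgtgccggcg
MRPL12: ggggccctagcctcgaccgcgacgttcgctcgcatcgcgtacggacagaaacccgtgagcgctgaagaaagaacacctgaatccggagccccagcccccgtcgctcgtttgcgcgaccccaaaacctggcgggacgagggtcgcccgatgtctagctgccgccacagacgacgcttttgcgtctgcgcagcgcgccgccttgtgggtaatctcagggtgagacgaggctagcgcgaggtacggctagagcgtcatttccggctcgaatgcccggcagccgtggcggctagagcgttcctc
The MRPL9 window held the TEAD letters on the opposite strand, beginning 187 bases upstream of the start. The MRPS24 window held the YY1 letters just after the start, at an offset of 19 bases. The MRPS10 window held the ETS letters 22 bases upstream and the YY1 letters at an offset of 9 bases after the start. The MRPL12 window held none of the 5 letter strings.

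A promoter was found for 69 of the 78 members. The ETS letters stood in 30 of them (43.5%), against 23.1% of the promoters of 10234 tested genes and 12.2% of all 27305 promoters. The YY1 letters stood in 21 (30.4%), against 6.65% of tested and 3.52% of all genes. Promoters of 59 cytosolic ribosomal protein genes, compared after results were seen, held the ETS letters in 22 (37.3%) and the YY1 letters in 6 (10.2%). At least 1 of these 2 strings was in 43 member promoters (62.3%), against 28.0% of tested and 14.9% of all genes, and both were in 8. The TEAD letters were in 11 (15.9%), against 14.9% of tested and 16.7% of all genes. The NRF1 letters were in 6 (8.70%), against 6.50% of tested and 3.68% of all genes. The E-box was in 9 (13.0%), against 12.5% of tested and 8.77% of all genes. Of the 18 members that had a promoter and were lower without overlap, 12 held the ETS letters, 5 the YY1 letters, 3 the TEAD letters, 1 the NRF1 letters and 0 the E-box. Members with the ETS letters had a median log2 fold change of -0.15 and those without them -0.07. The medians with and without the letters were -0.03 and -0.12 for YY1, -0.18 and -0.09 for TEAD, -0.14 and -0.09 for NRF1, and -0.03 and -0.10 for the E-box. Longer strings for NRF1 (a palindrome that contains the shorter one) and TEAD (CATTCCA, whose reverse complement contains GGAATG) were in 1 and 2 member promoters. GGGCGG was in 60.9% of member promoters, against 77.0% of tested and 48.3% of all genes. CCAAT was in 33.3%, against 43.4% of tested and 39.7% of all genes. The letters were searched with results in view, and a match is no evidence of binding.

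The other members of the large subunit followed by place in the particle. In the stalk, 4 of 5 members had a log2 fold change below 0, with a median of -0.23, and MRPL12 and MRPL54 were lower without overlap. MRPL10, the stalk base, ran from 17.8 to 32.3 FPKM with Sh-NC and from 12.3 to 28.7 FPKM with Sh-YAP1, and its groups overlapped. Its log2 fold change of -0.36 was -0.04 without Sh-YAP1 replicate 2 and -0.62 without either Sh-NC replicate 1 or Sh-YAP1 replicate 3. Around the exit of the peptide tunnel, 6 of 7 were below 0 with a median of -0.06, and MRPL47 alone did not overlap. In the central protuberance, 5 of 7 were below 0 with a median of -0.12. MRPL27 and MRPL48 were lower there without overlap. MRPL48 was 27.2, 24.7 and 34.7 FPKM with Sh-NC and 23.1, 19.7 and 22.4 FPKM with Sh-YAP1. It was lower in all Sh-YAP1 libraries (log2 fold change -0.38, limma with Benjamini-Hochberg adjustment, adjusted p = 0.173), although its highest row differed by less than 1 FPKM between the group means and overlapped. Without Sh-NC replicate 3 the log2 fold change of MRPL48 was -0.24. MRPL43, a protein found only in mitochondrial ribosomes, was 33.7, 28.4 and 23.2 FPKM with Sh-NC and 20.7, 22.2 and 22.02 FPKM with Sh-YAP1, lower without overlap (log2 fold change -0.36, limma with Benjamini-Hochberg adjustment, adjusted p = 0.181, and -0.24 without Sh-NC replicate 1). It shares exon positions on the opposite strand with TWNK, at 9.10 FPKM with Sh-NC and 5.44 FPKM with Sh-YAP1. MRPL51, the most abundant member, was 102, 99.9 and 96.6 FPKM with Sh-NC and 83.7, 91.8 and 81.3 FPKM with Sh-YAP1, also without overlap (log2 fold change -0.22, limma with Benjamini-Hochberg adjustment, adjusted p = 0.146).

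The 30 large-subunit members with a bacterial homologue had 24 below 0 and a median log2 fold change of -0.16. The other 21 genes of the large subunit by place, MRPS18A and MRPS30 among them, had 14 below 0 and a median of -0.05. MRPS18A was counted with these 21 although it too descends from a bacterial protein. Apart from MRPL9, no gene of the large subunit by place passed the adjusted threshold. MRPL2, next to the peptidyl transferase centre and named after its values were seen, was 68.5, 72.9 and 69.8 FPKM with Sh-NC and 54.0, 53.9 and 62.5 FPKM with Sh-YAP1. Its groups did not overlap (log2 fold change -0.31, limma with Benjamini-Hochberg adjustment, adjusted p = 0.0948).

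The 4 large-subunit members with the highest log2 fold changes all overlapped between the groups. MRPL30 was 9.21, 15.04 and 20.4 FPKM with Sh-NC and 26.6, 13.9 and 23.7 FPKM with Sh-YAP1 (log2 fold change 0.51, 95% interval -0.27 to 1.30, with 0.23 without Sh-NC replicate 1 and 0.78 without Sh-YAP1 replicate 2). MRPL42 was between 6.29 and 7.06 FPKM with Sh-NC and 9.87, 5.68 and 16.0 FPKM with Sh-YAP1. Its log2 fold change of 0.46 was 0.13 without Sh-YAP1 replicate 3 and 0.81 without Sh-YAP1 replicate 2. The value of MRPL53, a stalk-side protein, depended on single libraries, since it was 21.0 FPKM with Sh-YAP1 replicate 2 and between 3.31 and 9.54 FPKM in the other libraries. Its log2 fold change of 0.23 became -0.37 without that library, -0.02 without Sh-NC replicate 1 and 0.81 without Sh-YAP1 replicate 1. MRPL49 was 21.0 and 21.3 FPKM in replicate 2 of Sh-NC and of Sh-YAP1, and between 45.1 and 61.9 FPKM in the other 4 libraries, so that the replicates of a group differed more than the groups (log2 fold change 0.19, and -0.20 to 0.66 with 1 library left out). It shares exon positions on the opposite strand with FAU, at 287 FPKM with Sh-NC and 248 FPKM with Sh-YAP1, and the sources used here do not say whether strand was used in counting.

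**Figure D5:**
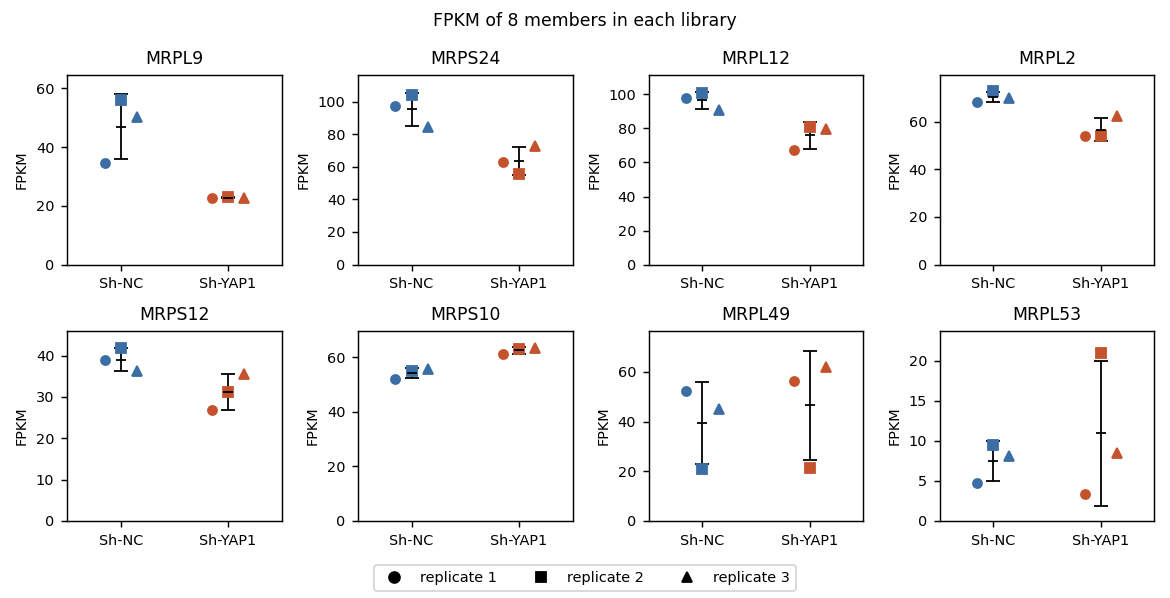
FPKM of 8 members in each library, with circles, squares and triangles for replicates 1, 2 and 3, and a dash and error bar for the mean and SD of 3 libraries. MRPL9, MRPS24, MRPL12, MRPL2 and MRPS12 are lower and MRPS10 is higher in all Sh-YAP1 libraries, while MRPL49 and MRPL53 vary more within a group than between groups.

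In the small subunit, the head had 3 of 8 members below 0 and a median log2 fold change of 0.02, and held both MRPS24 and MRPS10, the members furthest apart. The platform had 2 of 4 below 0 with a median of 0.03, and the foot 5 of 6 with a median of -0.13. MRPS12, part of the decoding centre, was 39.0, 41.8 and 36.3 FPKM with Sh-NC and 26.9, 31.2 and 35.5 FPKM with Sh-YAP1. It was lower in all Sh-YAP1 libraries by a narrow gap (log2 fold change -0.32, limma with Benjamini-Hochberg adjustment, adjusted p = 0.173). It shares exon positions on the opposite strand with SARS2, at 18.5 FPKM with Sh-NC and 16.6 FPKM with Sh-YAP1. MRPS2 was 33.0, 65.8 and 61.4 FPKM with Sh-NC and 19.6, 53.7 and 54.2 FPKM with Sh-YAP1, lowest in replicate 1 of both groups, and its log2 fold change of -0.39 became 0.08 without Sh-YAP1 replicate 1. MRPS16 was 28.1, 20.8 and 10.8 FPKM with Sh-NC and 13.1, 14.8 and 16.6 FPKM with Sh-YAP1, with overlapping groups, and its log2 fold change of -0.31 was -0.02 without Sh-NC replicate 1 and -0.67 without Sh-NC replicate 3. MRPS14, MRPS28 and MRPS35 overlapped as well, at log2 fold changes of 0.20, 0.14 and 0.10. With 1 library left out these ran from 0.057 to 0.29 for MRPS14, from -0.012 to 0.28 for MRPS28 and from -0.10 to 0.28 for MRPS35, lowest without Sh-YAP1 replicate 2 for MRPS28 and without Sh-NC replicate 1 for MRPS35.

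The paralogues MRPS18A, MRPS18B and MRPS18C descend from 1 bacterial protein and differed in level. Their means over the 6 libraries were 49.3, 56.8 and 18.5 FPKM, and the range of MRPS18C (16.6 to 19.6 FPKM) lay below those of MRPS18A (46.0 to 52.2 FPKM) and MRPS18B (51.5 to 60.8 FPKM), which overlapped. Their log2 fold changes were -0.09, -0.00 and -0.10, and none passed the test. MRPS18A and MRPS30 sit in the large subunit despite their symbols, and MRPS36 belongs to the 2-oxoglutarate dehydrogenase complex. MRPS30 was between 25.3 and 26.4 FPKM in all 6 libraries, the narrowest spread among the named members (log2 fold change -0.03). MRPS36 ran from 17.2 to 23.8 FPKM with Sh-NC and from 16.0 to 20.4 FPKM with Sh-YAP1. With these genes moved to their place, the medians were -0.12 for 51 large-subunit and -0.06 for 26 small-subunit genes.

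The 78 members were spread over 499 transcript rows, with a median of 5 rows per member and between 1 and 34. The highest row was the same in all 6 libraries for 60 members and changed between libraries for 18. For 20 members, 1 row held at least 90% of the value in every library, and these had a median log2 fold change of -0.10, with 15 below 0. The other 58 members had a median of -0.09. With the highest row alone, log2 fold changes were -0.28 for MRPS24, -0.17 for MRPS12, -0.12 for MRPL48, -0.93 for MRPL10, -0.55 for MRPS16, 0.44 for MRPL49, 0.91 for MRPL42 and 1.04 for MRPL53. Pseudogenes of the members, which share sequence with them, summed to 17.3 FPKM with Sh-NC and 14.6 FPKM with Sh-YAP1, 0.547% of the sum of the members. Exons of another gene overlapped 41 members, 16 of them on the same strand.

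The genes that work with the particle were read from lists of fixed membership. None of 6 further subunits with other names, of 15 translation factors or of 26 assembly and rRNA-modification factors passed the Benjamini-Hochberg adjusted threshold (limma), while 2 and 0, 2 and 1, and 3 and 2 of them were lower and higher at an unadjusted p under 0.05. In either direction these are 33.3%, 20% and 19.2% of the lists, against 21.9% of all tested genes. Their median log2 fold changes were -0.08, 0.01 and -0.02. DAP3, a GTP-binding small-subunit protein, was 83.4 ± 5.06 and 72.0 ± 11.8 FPKM (SD, n = 3), and PTCD3 was 25.8 ± 0.51 and 27.1 ± 2.10 FPKM (SD, n = 3), both with overlap. TUFM, the elongation factor that brings aminoacyl-tRNA to the ribosome, was 118 ± 16.0 FPKM with Sh-NC and 118 ± 11.3 FPKM with Sh-YAP1 (SD, n = 3).

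Of 20 mitochondrial aminoacyl-tRNA synthetases and amidotransferase subunits, 1 was downregulated, where 1.62% of all tested genes were. At an unadjusted p under 0.05, 4 of them (20%) were lower and 0 higher, against 11.1% of all tested genes lower and 21.9% in either direction. CARS2, which charges cysteine tRNA, was 19.0, 16.7 and 17.7 FPKM with Sh-NC and 10.1, 9.80 and 11.7 FPKM with Sh-YAP1. The groups did not overlap (log2 fold change -0.70, standard error 0.10, limma with Benjamini-Hochberg adjustment, adjusted p = 0.0211). Of 5 genes for transcription of mitochondrial DNA, 1 (20%) was downregulated, and no other passed at an unadjusted p under 0.05. TFAM, which packages mitochondrial DNA and starts its transcription, was 18.3, 18.8 and 22.9 FPKM with Sh-NC and 11.5, 12.9 and 11.1 FPKM with Sh-YAP1. These groups did not overlap either (log2 fold change -0.71, standard error 0.11, limma with Benjamini-Hochberg adjustment, adjusted p = 0.0266). The adjusted p of TFAM was between 0.0586 and 0.0967 with any 1 library left out, and that of CARS2 between 0.0595 and 0.0801 with any library but Sh-YAP1 replicate 3 left out (limma, Benjamini-Hochberg). It was 0.135 for TFAM and 0.0934 for CARS2 with no filter on low genes, and 0.0837 and 0.0852 with the highest row alone (limma, Benjamini-Hochberg).

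None of the RNAs of mitochondrial DNA on these lists passed the adjusted threshold in the comparison as described above. The paper does not state how rRNA was handled in library preparation, so the rRNA values need not give the rRNA level of the cells. MT-RNR1, the small-subunit rRNA, was 1066 ± 36.5 FPKM with Sh-NC and 1065 ± 65.1 FPKM with Sh-YAP1 (SD, n = 3), with a log2 fold change of -0.00. MT-RNR2, the large-subunit rRNA, was 5010 ± 311 and 5453 ± 374 FPKM (SD, n = 3), with a log2 fold change of 0.12 and an adjusted p of 0.435 (limma, Benjamini-Hochberg), and a log2 fold change of 0.07 without Sh-YAP1 replicate 1. The 13 protein-coding genes of mitochondrial DNA had 11 above 0 and a median log2 fold change of 0.17. Of these 13, 0 passed the adjusted threshold. At an unadjusted p under 0.05 (limma), 3 were higher and 0 lower. That is 23.1%, against 10.8% of all tested genes higher and 21.9% in either direction. The summed FPKM of the 13 overlapped between the groups. Not all 13 are separate measurements, since MT-ND4L overlaps MT-ND4 and MT-ATP8 overlaps MT-ATP6 in position. MT-ND6 lies directly after MT-ND5 on the opposite strand, and whether strand was used in counting is unknown. With quantile normalization MT-ND6, a respiratory chain subunit named after its value was seen, passed the adjusted threshold (log2 fold change 0.55, limma with Benjamini-Hochberg adjustment, adjusted p = 0.0327). Sh-YAP1 replicate 1, the library with the lowest sum of ribosomal proteins, was the highest for 12 of these 13 genes. Among all 14770 tested genes it was the highest for 2993. Without that library, the log2 fold change went from 0.05 to -0.07 for MT-ND1 and from 0.17 to 0.05 for MT-ND4. It was then still 0.34 for MT-ND5 and 0.45 for MT-ND6.

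The proteins of the cytosolic ribosome were chosen for comparison after results were seen. Of 75 tested, 64 had a log2 fold change below 0, with a median of -0.16, beside 56 of 78 and -0.09 for the mitochondrial members and 50.2% below 0 over all tested genes. Past the adjusted threshold, 2 were downregulated, against 1.62% of all tested genes (limma, Benjamini-Hochberg). They summed to 42407 ± 660 FPKM with Sh-NC and 38670 ± 2740 FPKM with Sh-YAP1 (SD, n = 3), a difference of -8.81%, beside -9.22% for the 78 mitochondrial members. Sh-YAP1 replicate 1 was the lowest library for 51 of the 75, against 3042 of all 14770 tested genes. Without that library the difference was -5.12% for the cytosolic and -7.49% for the mitochondrial genes. The difference between these gene groups was not tested.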

How the data were processed

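The authors sequenced total RNA of the 6 MDA-MB-231 libraries and deposited FPKM values with 2 decimals, 1 per transcript row, with a gene identifier and no transcript name. The submitters' processing notes list hg19, Bowtie 0.12.2 and HISAT2 2.0 without roles, and the counting tool and strand setting are not given in the sources used here. Rows of a gene were summed. Names and positions came from GENCODE 29 (GRCh38) by identifier, found for 58394 of 60612 identifiers. Genes averaging 0.5 FPKM or more were tested as log2(FPKM + 1) in R 4.3.3 by limma 3.58.1 (linear fits moderated by eBayes along a mean-variance trend) and Benjamini-Hochberg adjustment over 14770 genes. Tools for counts were not used, and an exact permutation test of 3 against 3 cannot go below p = 0.1. Further steps in Python 3.11.15 (numpy 2.4.6, pandas 2.3.3, matplotlib 3.10.9) were tested on simulated data.

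Members and lists were chosen with earlier results of these data known. Named with values were, by rule, the members past the threshold, the 4 largest rises and falls and the 2 highest and lowest levels of each subunit, MRPL12, MRPS12, the MRPS18 paralogues, MRPS30 and MRPS36, the partner genes past the threshold or else DAP3, PTCD3 and TUFM, the mitochondrial rRNAs and YAP1. Members named only as not overlapping, MRPL2, the 9 letter strings, the 4 promoters, the members held at 90% in 1 row and the cytosolic comparison were chosen after values were seen. Alternatives covered pseudocounts of 0.1 and 0.01, quantile normalization, median centring, no trend, no filter, a filter at 1 FPKM, rows with a mean of at least 0.1 FPKM, the highest row alone, the replicate number as a block, the place of MRPS18A, MRPS30 and MRPS36, and each library left out.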

Additional observations from a re-analysis of the deposited data

How the results depend on the processing

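The number of genes past the adjusted threshold was 499, and it was 103 with no filter, 96 with the highest row alone, 1 with the replicate number as a block, and 78 to 171 with 1 library left out. Large-subunit members past it numbered 1, but 0 with no filter, with the block and with the highest row alone, and 0 to 1 with 1 library left out. The partner genes past it numbered 2, but 0 under those 3 settings and 0 to 2 with 1 library left out. The 2 without Sh-YAP1 replicate 3 were CARS2 and MRM2, an rRNA methyltransferase named after its value was seen (both at an adjusted p of 0.0441, limma with Benjamini-Hochberg adjustment), and TFAM was not among them. With quantile normalization the partner genes numbered 3, with MT-ND6 besides TFAM and CARS2. No small-subunit member passed it under any alternative. Under the block the adjusted p was 0.130 for MRPL9, 0.132 for TFAM and 0.122 for CARS2 (limma, Benjamini-Hochberg). Same-numbered libraries of the 2 groups shared only a number: their deviations correlated at -0.028, 0.062 and 0.004, and 2 of 6 libraries correlated best with their own number.

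With the highest row alone, the large-subunit median was -0.054, the summed ratio was 0.937 for the large and 0.968 for the small subunit, and YAP1 had a log2 fold change of -1.97 (limma with Benjamini-Hochberg adjustment, adjusted p = 0.381). Members without overlap numbered 14 with the highest row alone, against 21 with all rows summed. Leaving out 1 library gave medians of -0.17 to -0.10 for the large and -0.11 to -0.030 for the small subunit, and 25 to 35 members without overlap, where 2 libraries were set against 3. Directions reversed for MRPL9 (0.14) and TUFM (-0.11) with the highest row alone, for MRPS31 (-0.013), MRPS18B (0.060) and MT-RNR1 (0.071) with quantile normalization, and for MRPS31 (-0.017) and TUFM (-0.017) with median centring. Centring shifts every gene alike, and these 2 lay at 6.9e-05 and 9.6e-05, so their sign there carries no information on stability. With 1 library left out, log2 fold changes that crossed 0 ran from -0.20 to 0.66 for MRPL49, -0.37 to 0.81 for MRPL53, -0.16 to 0.016 for MRPL19, -0.70 to 0.077 for MRPS2, -0.10 to 0.28 for MRPS35, -0.012 to 0.28 for MRPS28, -0.047 to 0.038 for MRPS31, -0.072 to 0.045 for MRPS18B, -0.22 to 0.018 for MRPS36, -0.061 to 0.11 for TUFM and -0.052 to 0.026 for MT-RNR1. Of 545 values of named genes other than YAP1 under the alternatives, 489 kept direction and side of the threshold, 25 lost the threshold and 31 reversed. The causes were not tested, beyond the fewer samples or more genes tested that define some alternatives. The unknown depth leaves sampling error within a library without an interval.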
